A study of Mus musculus with 16 samples.

Results

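Pancreatic-type digestive enzyme genes were followed in intestinal epithelium: Ctrb1, which encodes the protease chymotrypsinogen B, Cela1, which encodes a chymotrypsin-like elastase, and Clps, which encodes colipase. They are 3 of the 24421 genes counted and were chosen by their levels in the 4 groups of libraries described here, so the regional and age differences of these 3 genes are given as a description, without a test. All 3 passed the filter on low counts that kept 13429 genes. The libraries came from wild-type C57BL6/J mice at postnatal day 6 (P6), when pups suckle, and at postnatal day 36 (P36), when they eat solid food. Epithelium was loosened with EDTA from a piece of jejunum and a piece of ileum of each of 8 mice, 4 at each age, which gave 16 libraries in 4 groups of 4. Mice are numbered 1 to 4 within each age, mice 1 and 2 being female and mice 3 and 4 male, and the same number in the jejunum and the ileum stands for the same mouse. The age and the animals cannot be told apart, since no mouse was sampled at both ages.

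Pancreatic acinar cells secrete digestive enzymes into the duodenum. The proteases among them, trypsin, chymotrypsin, elastase and the carboxypeptidases, leave the cell as inactive zymogens, and enteropeptidase of the duodenal brush border starts their activation by cutting trypsinogen. Colipase has no catalytic activity of its own: it binds pancreatic lipase and anchors it to fat droplets covered with bile salts. The pancreatic lipase-related protein 2, encoded by Pnliprp2, is a lipase of the same family that also cleaves phospholipids and galactolipids. The jejunum and ileum lie downstream of the duodenum, and their epithelium carries brush border enzymes of its own.

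In mm10, Ctrb1 lies at chr8:111686510-111691010, Cela1 at chr15:100674422-100687920 and Clps at chr17:28558214-28560714, all on the minus strand. The reads were counted over 7 exons and 887 bases for Ctrb1, 8 exons and 1106 bases for Cela1, and 3 exons and 494 bases for Clps. None of the 3 overlapped another counted gene on either strand. The 250 bases before the start of Ctrb1 and of Cela1 are shown because these genes had their highest level in the same group of libraries. They are RefSeq sequences of GRCm38.p6 on the minus strand, at chr8:111691011-111691260 and chr15:100687921-100688170. Capitals mark TTTTCCC and CACCTG, letters that are part of the element bound by the acinar factor PTF1 and were searched on both strands.
Ctrb1: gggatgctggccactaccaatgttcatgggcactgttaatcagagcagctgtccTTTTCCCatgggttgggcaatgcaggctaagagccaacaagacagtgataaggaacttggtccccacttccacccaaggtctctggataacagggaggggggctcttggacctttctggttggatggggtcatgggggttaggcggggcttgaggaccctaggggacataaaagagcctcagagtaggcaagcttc
Cela1: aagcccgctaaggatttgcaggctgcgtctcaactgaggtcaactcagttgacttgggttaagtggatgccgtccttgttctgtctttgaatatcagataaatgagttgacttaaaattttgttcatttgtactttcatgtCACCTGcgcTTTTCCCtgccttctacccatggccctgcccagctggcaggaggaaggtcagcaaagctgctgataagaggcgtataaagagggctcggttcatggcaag
TTTTCCC stood 196 to 190 bases before the start of Ctrb1 and 100 to 94 bases before that of Cela1. CACCTG was found in Cela1, 109 to 104 bases before the start, and had no match in the Ctrb1 window. Similar letters, such as cagctg, were not searched. They stand just before TTTTCCC in the printed Ctrb1 window and after it in that of Cela1. TATAAA lay 27 to 22 bases before the start of Cela1, and GATAA, letters that GATA factors can bind, occurred 2 times in each window. Of 32851 mouse promoter windows of this length, 6.49% held TTTTCCC, 17.2% CACCTG, 12.4% TATAAA and 22.6% GATAA on either strand. No binding was measured here.

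Library totals ranged from 12159237 to 25947276 counts, and no replicate was a copy of another. Levels are CPM (a gene's counts relative to the size of its library) scaled by TMM factors (edgeR's correction for library composition), and levels of different genes are compared as CPM per kilobase of exon. Of the ileum libraries, 3 stood apart in marker genes: P36 ileum mouse 3 had the highest sum of 10 Paneth cell genes (16370 CPM, against 5792 to 8756 in the other P36 ileum libraries) and the lowest sum of 8 enterocyte genes (7338 CPM, against 15067 to 35934). In P6 ileum mouse 4 the enterocyte genes summed to 14454 CPM, against 21008 to 24809 in the other P6 ileum libraries, and in P6 ileum mouse 2 the mesenchyme and muscle genes summed to 348 CPM, against 16.6 to 32.6. The log2 fold changes of the 3 genes between the P6 regions were 6.69 (Ctrb1), 2.66 (Cela1) and 0.90 (Clps) with these libraries left out, and further values without them stand beside the results they move.

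Pancreatic tissue was looked for through 3 genes that acinar cells make in bulk. Cpa1, encoding carboxypeptidase A1, and Prss2, encoding a trypsinogen, had 0 counts in all 16 libraries. Pnlip, encoding pancreatic lipase, had 2 counts in all, both in P36 jejunum mouse 3. Over the 322856443 counts of all libraries a count of 0 allows up to 0.00934 CPM, and in the smallest library up to 0.237 CPM, which covers counting error only. All 10 trypsin genes counted, Ctrc, Cela3a and Clpsl2 were at 0 counts too. For the trypsin genes, Prss2 among them, this covers only reads assigned to 1 gene, since reads that match several copies could not be assigned. Of a list of 9 acinar factors and secretory genes, the transcription factors Ptf1a and Rbpjl were at 0 and 5 passed the filter, and the summed level of the list was higher at P36 (98.3 to 236 CPM) than at P6 (3.01 to 15.1 CPM). Most of that sum came from the kallikrein Klk1, with Bhlha15 and the lectin gene Reg1 adding to it. Of 7 pancreatic islet genes, Ins1 and Nkx6-1 were at 0. The peptide hormone gene Pyy, which gut endocrine cells also express, had the highest level of that list.

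**Figure D1:**
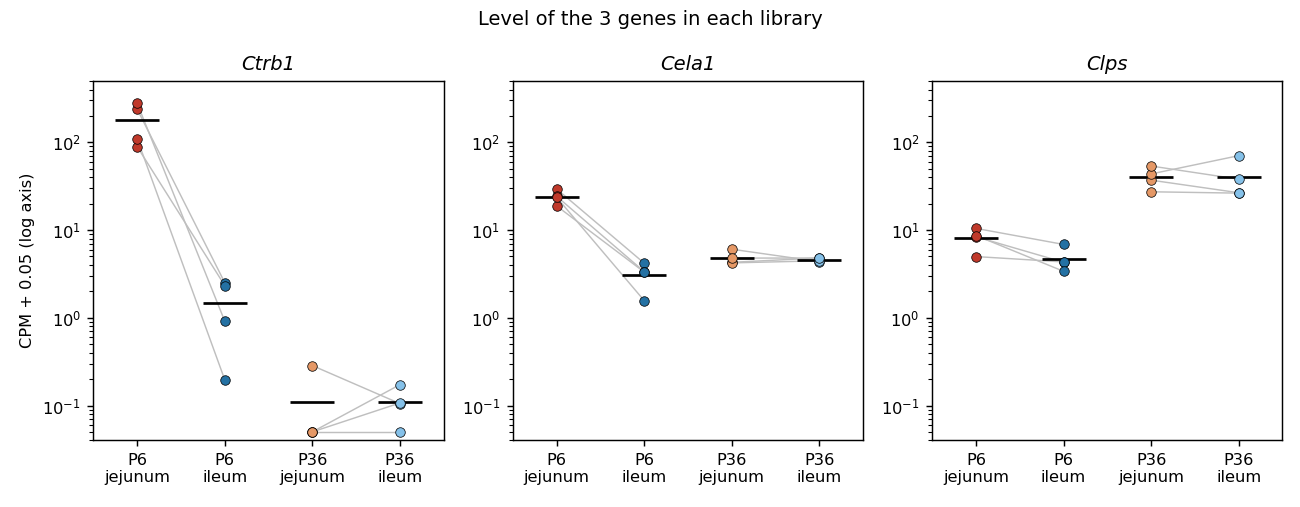
Level of Ctrb1, Cela1 and Clps in each of the 16 libraries, as CPM plus 0.05 on a log axis. Points are libraries, grey lines join the jejunum and ileum of one mouse and black bars are the means of 4 mice; Ctrb1 reached 89.1 to 278 CPM in the P6 jejunum and at most 2.47 CPM in any other library.

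Ctrb1 was highest in the P6 jejunum. Its level there was 239, 89.1, 278 and 109 CPM in mice 1 to 4 (mean 179 ± 93.5, SD, n = 4). The ileum of the same mice had 2.47, 2.28, 0.868 and 0.147 CPM (mean 1.44 ± 1.12). The groups did not overlap, and the jejunum exceeded the ileum in 4 of 4 mice, by 39.0 to 743 times within a mouse. The ratio of the means was 124, and the fitted log2 fold change was 6.93 (SE 0.65). Per kilobase, Ctrb1 stood at 201 CPM in the P6 jejunum, rank 360 of the 13429 tested genes. In the P6 ileum it was at rank 10325, with 1.63 CPM.

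The spread of Ctrb1 among the P6 jejunum libraries was wide, and it fell along the animal numbers in the labels. Mice 1 and 3, whose numbers share a stem, had 239 and 278 CPM, and mice 2 and 4, which share another, had 89.1 and 109 CPM. What the stem stands for is not stated. Itln1, a lectin gene of Paneth and goblet cells, split the same way, with 557 to 782 CPM in the jejunum of mice 1 and 3 and 4.36 to 7.09 CPM in that of mice 2 and 4. In the P6 ileum Itln1 split by stem too, with 435 to 620 CPM against 8.09 to 10.3 CPM. Ctrb1 did not split there, with 0.868 to 2.47 CPM in mice 1 and 3 and 0.147 to 2.28 CPM in mice 2 and 4. Cela1 differed less between the pairs, with 24.2 to 29.4 CPM against 18.8 to 23.6 CPM in the P6 jejunum. The regional difference was present within both pairs, as the ratio of each mouse shows. P6 ileum mouse 4, low in enterocyte genes, had the lowest Ctrb1 level, and without it the P6 log2 fold change was 6.56.

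By P36 Ctrb1 was at the limit of detection. The P36 jejunum held 4 counts, all in mouse 1 (0.235 CPM), and 0 counts in mice 2, 3 and 4, where a count of 0 allows 0.132 to 0.160 CPM. The P36 ileum held 1, 1, 3 and 0 counts in mice 1 to 4, or 0.0553, 0.0567, 0.123 and 0 CPM. Every P6 library lay above every P36 library of the same region, but narrowly in the ileum. The P6 ileum held 50, 53, 16 and 3 counts in mice 1 to 4. Its mouse 4 (0.147 CPM) differed from P36 ileum mouse 3 (0.123 CPM), also at 3 counts, by library size alone. After scaling for depth, Ctrb1 counts were 3557 times higher at P6 than at P36 in the jejunum, with a 95% exact interval of 1389 to 13058, and 21.6 times higher in the ileum, with an interval of 9.01 to 67.7. These intervals cover counting error only, not the spread between mice. The fitted log2 fold changes from P6 to P36 were -11.63 (SE 0.90) in the jejunum and -4.30 (SE 1.00) in the ileum, and they depend on how few P36 counts there are: without P36 jejunum mouse 1, where all the P36 jejunum counts lie, the first was -14.82. The P36 regions could not be told apart at this depth, with a log2 fold change of -0.40 (SE 1.76) between them, which became -3.59 without P36 jejunum mouse 1 and 0.25 without P36 ileum mouse 3.

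Cela1 shared the P6 jejunum as its highest group but stayed measurable in every library. It was at 29.4, 18.8, 24.2 and 23.6 CPM in the P6 jejunum of mice 1 to 4 (mean 24.0 ± 4.33, SD, n = 4). The P6 ileum of the same mice had 4.15, 3.27, 3.31 and 1.52 CPM (mean 3.06 ± 1.10). No P6 ileum library reached a P6 jejunum library. The jejunum was 5.74 to 15.5 times the ileum within a mouse, in 4 of 4 mice, and the ratio of the means was 7.83 (log2 fold change 2.97, SE 0.25). Without P6 ileum mouse 4, the lowest, the log2 fold change was 2.75.

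At P36 the regional difference of Cela1 was not seen. The P36 jejunum had 6.00, 4.24, 4.18 and 4.74 CPM (mean 4.79 ± 0.848), and the P36 ileum 4.31, 4.76, 4.41 and 4.75 CPM (mean 4.56 ± 0.231). The groups overlapped, the jejunum was higher in 1 of 4 mice, and the log2 fold change between them was 0.07 (SE 0.24). Scaling by library totals or leaving out P36 jejunum mouse 1 turned its sign, to -0.08 and -0.06. From P6 to P36, Cela1 was lower in the jejunum by 5.01 times in means (log2 fold change -2.33, SE 0.24) and higher in the ileum by 1.49 times (0.57, SE 0.24). Neither region overlapped between the ages, but in the ileum the highest P6 value was 4.15 CPM and the lowest P36 value 4.31 CPM. The ileal log2 fold change was 0.35 without P6 ileum mouse 4 and 0.31 with the 3 ileum libraries left out. The regional difference was larger at P6 than at P36 by 2.90 (SE 0.34) on the log2 scale for Cela1 and by 7.33 (SE 2.43) for Ctrb1, the second resting on 9 Ctrb1 counts at P36.

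Ctrb1 and Cela1 varied together among libraries of one group as well as between groups. Across the 16 libraries Pearson's r of their log2 CPM was 0.86, and after removing the group means it was also 0.86, with 0.90 for the 8 P6 libraries alone. These are descriptions over libraries that share mice and include P36 values of Ctrb1 near 0. P6 ileum mouse 4, low in enterocyte genes, was the lowest P6 library for both genes (0.147 and 1.52 CPM). No r without this library is given. Per kilobase the protease genes differed in level: in the P6 jejunum Ctrb1 stood at 201 CPM and Cela1 at 21.7 CPM (rank 3451), whereas at P36 Cela1 stood at 4.33 and 4.12 CPM in jejunum and ileum, and Ctrb1 at 0.0663 and 0.0661 CPM. The summed enterocyte list moved with the P6 regional difference. Its 8 genes, led by the apolipoprotein gene Apoa4, summed to 93435 to 115013 CPM in the P6 jejunum, against 14454 to 24809 CPM for P6 ileum. Single genes of the list differed in direction. Fabp2 was higher in the jejunum, with 3916 to 6002 CPM against 239 to 949 CPM in ileum. Vil1, a structural gene of the brush border, overlapped between the regions, with 1420 to 1578 CPM in jejunum and 752 to 1546 CPM in ileum. Epcam was higher in the ileum, with 1747 to 2139 CPM against 1137 to 1380 CPM in jejunum. After removing the group means at P6, r of Fabp2, 1 gene of the list, was -0.65 with Ctrb1 and -0.75 with Cela1. The summed list did not run one way within the groups. In the P6 ileum it was 24539, 24809, 21008 and 14454 CPM in mice 1 to 4, lowest where Ctrb1 and Cela1 were lowest. In the P6 jejunum it was 113235, 115013, 93435 and 108678 CPM, lowest in mouse 3, where Ctrb1 was highest. The part of these enterocyte genes in the regional difference of Ctrb1 and Cela1 was not tested. In bulk samples fewer cells of a type and less RNA per cell cannot be told apart.

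Clps followed another pattern, set by age more than by region. At P6 it was at 8.33, 10.4, 4.94 and 8.62 CPM in the jejunum of mice 1 to 4 (mean 8.07 ± 2.28, SD, n = 4). The P6 ileum had 4.25, 6.81, 4.28 and 3.33 CPM (mean 4.67 ± 1.49). The regional groups overlapped, yet the jejunum was higher in 4 of 4 mice, by 1.15 to 2.58 times, with a log2 fold change of 0.79 (SE 0.34).

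At P36 all 8 libraries held more Clps than any P6 library. The P36 jejunum had 37.0, 27.3, 43.6 and 53.7 CPM (mean 40.4 ± 11.1), and the P36 ileum 26.6, 26.3, 70.5 and 38.0 CPM (mean 40.3 ± 20.8). From P6 to P36 the mean was 5.00 times higher in the jejunum (log2 fold change 2.32, SE 0.34) and 8.64 times higher in the ileum (3.11, SE 0.36). The P36 regions overlapped, with the jejunum higher in 3 of 4 mice and ratios of 0.619 to 1.41. Their log2 fold change was -8.7e-05 (SE 0.32), and with the mouse as a replicate block it was 0.08. The highest of the P36 values, 70.5 CPM, came from ileum mouse 3, the library rich in Paneth cell genes. Without it the P36 ileum mean was 30.3 CPM, the log2 fold change between the P36 regions 0.41 and that with age in the ileum 2.70. Per kilobase, Clps stood at 16.3 and 9.45 CPM in P6 jejunum and ileum (ranks 4286 and 5911) and at 81.8 and 81.7 CPM in P36 jejunum and ileum (ranks 1003 and 915).

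**Figure D2:**
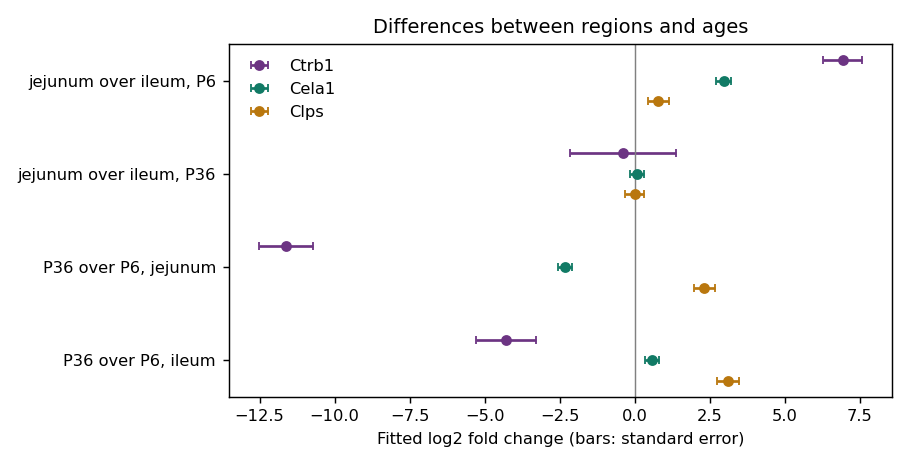
Fitted log2 fold changes of the 3 genes between regions at each age and between ages in each region, with bars of 1 standard error. Ctrb1 and Cela1 lie on the side of the jejunum at P6 (6.93 and 2.97), Clps lies on the side of P36 in both regions (2.32 and 3.11), and all 3 bars cross or touch 0 between the P36 regions.

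The levels of Clps among P36 libraries ran with those of Paneth cell genes. After removing the group means, Pearson's r of log2 CPM over the 8 P36 libraries was 0.97 with the summed Paneth list, 0.94 with the lysozyme gene Lyz1 and 0.96 with the ribonuclease gene Ang4. Without ileum mouse 3, the highest point, these values were 0.92, 0.85 and 0.92 over 7 libraries. Over the 8 P6 libraries the signs differed, with -0.74 for the Paneth list, 0.25 for Lyz1 and 0.65 for Ang4. Most of the list's sum in the P6 jejunum of mice 1 and 3 was Itln1. In P6 ileum mouse 4, the P6 library with the least Clps (3.33 CPM), the sum was 568 CPM. Itln1 was at most 10.3 CPM there, so other genes of the list made most of that sum. All 10 Paneth genes were detected, and their sum was 60.5 to 926 CPM at P6 and 4745 to 16370 CPM at P36, so that it separated the ages as Clps did. The goblet list was also higher at P36, with 11076 to 22873 CPM against 1706 to 4112 CPM at P6. The part of these cells in the level of Clps was not tested. These correlations describe libraries from 4 mice at each age and carry no test.

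**Figure D3:**
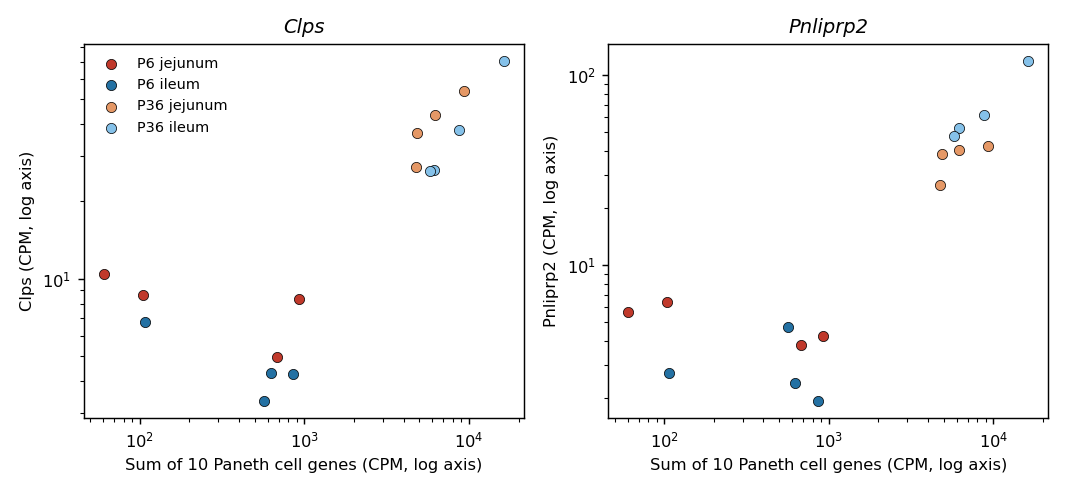
Clps (left) and Pnliprp2 (right) in CPM against the summed CPM of 10 Paneth cell genes in each of the 16 libraries, all axes logarithmic. The P36 libraries, at 4745 to 16370 CPM of Paneth genes, hold more of both transcripts than the P6 libraries, and P36 ileum mouse 3 is the highest for both, at 70.5 CPM of Clps and 119 CPM of Pnliprp2.

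The lipase gene Pnliprp2 moved with age like Clps, and this was tested, since it did not choose the members. P6 jejunum mice 1 to 4 had 4.23, 5.67, 3.78 and 6.42 CPM, and P6 ileum had 1.93, 2.71, 2.39 and 4.71 CPM. At P36 the jejunum had 38.4, 26.5, 40.5 and 42.4 CPM, and the ileum had 52.7, 48.0, 119 and 61.7 CPM. All P36 libraries lay above all P6 libraries. The log2 fold change with age was 2.88 (SE 0.33) in the jejunum and 4.58 (SE 0.35) in the ileum, with adjusted p of 1.98e-06 and 2.81e-08 in edgeR's quasi-likelihood test. The jejunum was higher in 4 of 4 mice at P6, by 1.36 to 2.20 times, and lower in 4 of 4 at P36, with ratios of 0.341 to 0.727. The regional log2 fold changes were 0.77 (edgeR adjusted p = 0.0910) at P6 and -0.93 (adjusted p = 0.0460) at P36, both under the log2 fold minimum of 2. These adjusted p do not separate the ages: with the mouse as a replicate block the values were 0.82 (edgeR adjusted p = 0.0190) and -0.85 (adjusted p = 0.0147). Without P6 ileum mouse 4 the P6 value was 1.10 (edgeR adjusted p = 0.0197), and without P36 ileum mouse 3 the P36 value was -0.55 (adjusted p = 0.211). Leaving out any 1 library gave edgeR adjusted p of 0.0197 to 0.219 at P6 and 0.0314 to 0.211 at P36. The difference between the regional contrasts was 1.70 (SE 0.44, edgeR adjusted p = 0.0244), and it missed the threshold without P6 ileum mouse 1 (1.53), P6 jejunum mouse 2 (1.65) or P6 jejunum mouse 4 (1.57). Without P36 ileum mouse 3 it was 1.33 (edgeR adjusted p = 0.0379). Over the 8 P36 libraries the group-centred r of Pnliprp2 was 0.97 with Clps and 0.90 with the Paneth list, and 0.93 and 0.73 without ileum mouse 3. Per kilobase, Clps exceeded Pnliprp2 in each group, with 81.8 against 23.6 CPM in P36 jejunum and 81.7 against 44.9 CPM in P36 ileum.

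The other enzyme genes of pancreatic type were mostly at or near 0 counts. Besides the 3 genes, 40 genes for proteases, lipases, amylases, ribonuclease, zymogen activation and their inhibitors were listed, of which 38 were in the files, 19 had a count in any library and 11 passed the filter. A gene was called differential where its adjusted p was under 0.05 and its log2 fold change lay beyond 2 in either direction. Between the P6 regions 3 of the 11 were differential, 2 higher in the jejunum and 1 lower, where 6.5% of all tested genes were. Between the P36 regions 2 were, 1 higher in the jejunum and 1 lower, against 3.6% of all genes. From P6 to P36, 7 were differential in the jejunum, 1 higher and 6 lower at P36, and 7 in the ileum, 2 higher and 5 lower, against 16.4% and 16.4% of all genes. The regional difference changed with age, at an adjusted p below 0.05, for 4 of the 11 and for 8.69% of all genes. The median log2 fold changes of the 11 were 0.85 and 0.76 between the regions at P6 and P36 and -2.55 and -1.92 with age in the jejunum and ileum, where all genes had medians of -0.05, -0.04, -0.01 and -0.03. Of the 11, 5 are the protease inhibitor genes Serpina1a to Serpina1e, and each median of the 11 is the value of a Serpina1 gene. Every gene differential between regions, at either age, was a Serpina1 gene, and no other tested enzyme gene was. With age, the calls outside this family were Pnliprp2 and Amy1 in the jejunum and Pnliprp2, Amy1 and Ctrl in the ileum. Between the P36 regions the count was 1 with the mouse as a replicate block and 1 without any one of P36 jejunum mice 1, 2 and 3 or P36 ileum mice 2, 3 and 4.

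**Figure D4:**
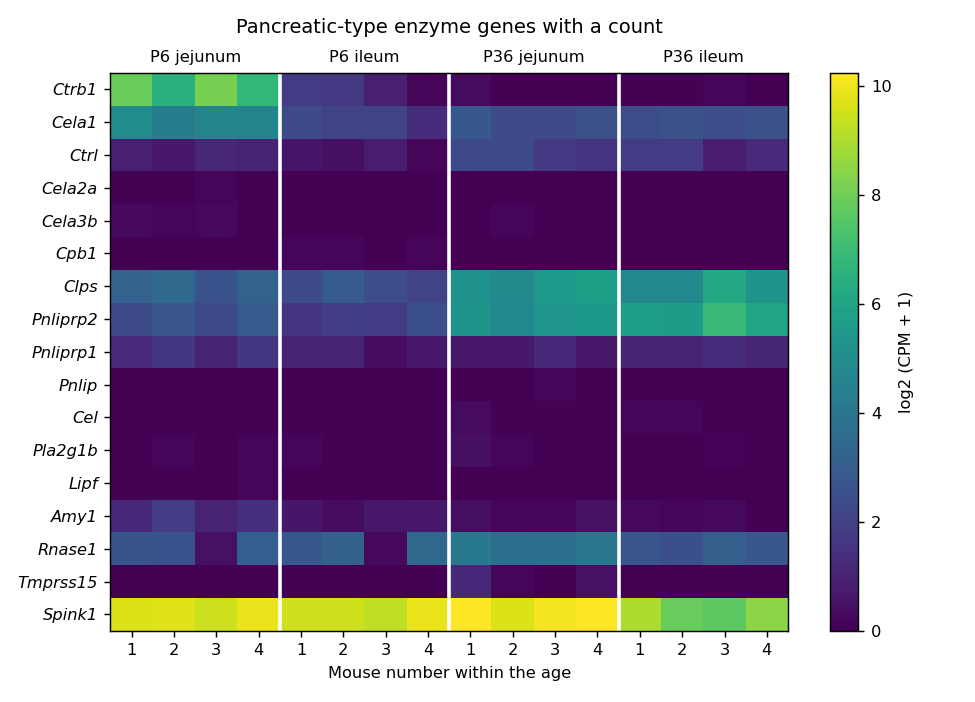
Heat map of log2 (CPM + 1) of the 3 genes and of 14 other listed enzyme genes with a count, the Serpina1 genes left out, in the 16 libraries ordered by group and mouse. Ctrb1 is bright in the P6 jejunum, Clps and Pnliprp2 in both P36 groups and the trypsin inhibitor gene Spink1 in every library, while most other rows stay close to 0.

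Among the proteases, Ctrl, which encodes a chymotrypsin-like enzyme, was the nearest relative of Ctrb1 with a level to compare, and it went the other way with age. At P6 it was at 0.625 to 1.16 CPM in jejunum and 0.0981 to 0.705 CPM in ileum, and at P36 at 2.03 to 3.97 and 0.694 to 2.54 CPM. In the ileum its log2 fold change with age was 2.10 (SE 0.50, edgeR adjusted p = 0.00217). That call was lost, with the fold change below the minimum, without P36 ileum mouse 1 (1.88), P36 ileum mouse 2 (1.91) or P6 ileum mouse 4 (1.78). In the jejunum the value was 1.71 (SE 0.47, adjusted p = 0.00600), under the fold minimum. The jejunum held more Ctrl than the ileum in 4 of 4 mice at each age, by 1.64 to 10.7 times at P6 and 1.42 to 3.43 times at P36, while the regional fold changes were not past the threshold. The elastase gene Cela3b had 10 counts in the P6 jejunum, spread over all 4 mice, 2 in the P36 jejunum and 0 in both ileum groups. Cela2a had 4 counts in P6 jejunum and 1 in P6 ileum. Cpb1, encoding carboxypeptidase B1, had 7 counts, all in the P6 ileum.

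Of the other lipases, Pnliprp1 had means of 1.70, 0.734, 0.776 and 1.15 CPM in P6 jejunum, P6 ileum, P36 jejunum and P36 ileum and was differential in no comparison. Its regional difference changed with age by 1.75 on the log2 scale (SE 0.58, edgeR adjusted p = 0.0760). With the mouse as a replicate block this was 1.84 (adjusted p = 0.0357), past the threshold, and so it was without P36 jejunum mouse 3 (2.07). Cel, Pla2g1b and Lipf, which encode bile salt-activated lipase, a pancreatic phospholipase and gastric lipase, had 14, 22 and 6 counts in all.

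Amy1, which encodes the amylase of salivary gland and liver, fell with age. Its means were 1.62 and 0.509 CPM in the P6 jejunum and ileum and 0.234 and 0.111 CPM at P36. The log2 fold change with age was -2.79 (SE 0.52, edgeR adjusted p = 0.000307) in the jejunum and -2.03 (SE 0.59, adjusted p = 0.00849) in the ileum. The ileal value was under the fold minimum without P36 ileum mouse 4 (-1.72), P6 ileum mouse 1 (-1.98), mouse 3 (-1.93) or mouse 4 (-1.89). The pancreatic amylase genes Amy2a2 to Amy2a5 and Amy2b were at 0 counts, and reads that match several copies of such a family could not be assigned to 1 gene. The pancreatic-type ribonuclease gene Rnase1 ranged from 0.163 to 16.6 CPM and was differential in no comparison. P6 mouse 3 had 0.368 and 0.163 CPM in jejunum and ileum, against 4.91 to 7.23 and 6.07 to 10.1 CPM in the other P6 mice. With age in the jejunum Rnase1 changed by 1.67 (edgeR adjusted p = 0.0626), under the fold minimum. The change of its regional difference with age was -1.69 (edgeR adjusted p = 0.333), and with the mouse as a replicate block -1.58 (adjusted p = 0.0168).

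Activators and inhibitors of the proteases were unequal in level. Tmprss15, encoding enteropeptidase, had 29 counts in all, each in the P36 jejunum, with 20, 2, 0 and 7 in mice 1 to 4. Spink1, which encodes a secreted trypsin inhibitor, was abundant in every group, with 848 ± 111 and 763 ± 156 CPM in the P6 jejunum and ileum and 1070 ± 180 and 320 ± 137 CPM at P36. Its regional difference changed with age by -1.59 on the log2 scale (SE 0.36, edgeR adjusted p = 0.0109). At P36 the jejunum was higher by 1.74 (SE 0.26, adjusted p = 0.000240), under the fold minimum, which it passed without P36 ileum mouse 1 (2.04).

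The alpha-1-antitrypsin genes Serpina1a to Serpina1e encode inhibitors of elastase and related proteases. Their sequences are so alike that reads matching several of them could not be assigned to 1 gene, and each value is uncertain for that reason. Serpina1a and Serpina1e shared the P6 jejunum with Ctrb1, with log2 fold changes of 6.04 (SE 0.45) and 4.05 (SE 0.41) over the P6 ileum and edgeR adjusted p of 1.64e-07 and 3.13e-06. Serpina1b was higher in the ileum at both ages, with -2.38 (SE 0.46) at P6 and -4.20 (SE 0.54) at P36. Serpina1c passed the threshold between the P36 regions at 2.14 (edgeR adjusted p = 0.0439), and with the mouse as a replicate block it was 2.21 (adjusted p = 0.0714). That call was also lost without any one of P36 jejunum mice 1, 2 and 3 (1.95 to 2.19) or P36 ileum mice 2, 3 and 4 (1.97 to 2.14). All 5 genes fell with age in the jejunum, by log2 fold changes of -2.55 to -11.81, and the smallest of these, that of Serpina1c, was -1.65 without P6 jejunum mouse 3. In the ileum Serpina1b stood at -1.92, under the fold minimum, and passed it without P36 ileum mouse 3 (-2.17) or P6 ileum mouse 3 (-2.08). The regional difference of Serpina1a and Serpina1e also changed with age, by 6.80 (edgeR adjusted p = 0.00746) and 3.30 (adjusted p = 0.0156). The second missed the threshold without P36 ileum mouse 1 (3.07), and both did with the 3 ileum libraries left out (7.22 and 3.69).

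The genes whose log2 CPM ran closest to each of the 3 genes over the 16 libraries were named by Pearson's r, as a description. For Ctrb1 they were Lim2 (0.99), D830030K20Rik (0.98), Csrp3 (0.98), Ctcflos (0.98) and Scnn1g (0.97). For Cela1 they were Cntnap1 (0.97), Apoc4 (0.96), Smco4 (0.96), Slc30a6 (0.95) and Tubb2a (0.94). For Clps they were Fars2 (0.98), Tmem258 (0.98), Mrpl21 (0.97), Idh3b (0.97) and Elp5 (0.97). These values follow the differences between the 4 groups: after removing the group means, 0 of the 5 stayed among the closest 5 for each gene, and the gene closest to Ctrb1 was then Cela1 (0.86). Ctrb1 was not in turn among the 5 genes closest to Cela1, whose r was 0.90 to 0.91. By Spearman's rho 0 of the 5 stayed for Ctrb1, 1 for Cela1 and 1 for Clps, and scaling by library totals left 0 for Clps. The 16 libraries share mice in pairs.

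Sex took no part in choosing the genes and was tested over the mice within each age. The mean log2 CPM of both regions was higher in female than in male mice by 0.76 for Ctrb1 and 0.21 for Cela1, and lower by 0.14 for Clps. The two-sided exact permutation test over 36 arrangements gave p of 0.222, 0.389 and 0.722, and adjusted values of 0.583, 0.583 and 0.722 over the 3 genes. The smallest p this design can give is 0.0556, so no sex difference could have passed 0.05.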

How the data were processed

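Epithelial RNA of 16 libraries was measured by stranded mRNA sequencing. After trimming by Trimmomatic 0.38 and alignment to mm10 by STAR (2.5.3 in the submitters' processing notes), the authors deposited raw counts per gene over exons, made with featureCounts of Subread 1.6.3 on read pairs with the reverse strand setting and no option for multi-mapping reads. From these counts, genes were filtered with filterByExpr, scaled by TMM and fitted in edgeR 4.0.16 (R 4.3.3), with 4 group means over 16 libraries and no block, as the study's methods name no covariate. The SE is the log2 fold change divided by the square root of the F statistic, p-values are Benjamini-Hochberg adjusted over 13429 genes, with a prior count of 2 in log2 CPM. The region-by-age interaction is the P6 regional difference minus that at P36. Same-numbered libraries came from the same animal by the labels, and their deviations from the group means correlated across genes at r of 0.157 to 0.391. Mice are the replicates, and the procedure was tested on simulated data. The 3 genes, the gene lists and the naming rule (the 3 genes, the acinar check, all tested enzyme genes and the 5 genes most like each) were chosen with earlier results of these data known. Results for 1 gene are not reported here. Genes outside that rule, such as Cela3b and Cpb1, were named after their values were seen. The alternatives were other scalings, filters and tools (DESeq2 1.42.0), only the 8 libraries compared, sex, the mouse as a block and each library left out, and, added after seeing the data, the 3 ileum libraries left out, centred correlations and those without P36 ileum mouse 3.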

Additional observations from a re-analysis of the deposited data

Results flagged for a closer look

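Some libraries lay far from the other 3 of their group by Dixon's criterion, which was applied to 56 groups of 4 and flags about 1 in 20 by chance. Ctrb1 was at 0.235 CPM (4 counts) in P36 jejunum mouse 1, with the other 3 libraries at 0. Against libraries at 0 the criterion flags any count, so this flag carries no weight. Pnliprp1 was at 1.26 CPM in P36 jejunum mouse 3, against 0.588 to 0.639. Serpina1d was at 6.02 CPM in P6 ileum mouse 1, above the other 3, of which the lowest had 2.33. P6 jejunum mouse 3 stood apart for 4 inhibitor genes, with lower Serpina1a (120 CPM, against 275 to 302) and Serpina1e (309 CPM, against 815 to 834) and higher Serpina1b (32.9 CPM, against 7.27 to 11.2) and Serpina1c (10.6 CPM, against 1.61 to 2.92). The same library had the highest Ctrb1 level of all.

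The regional difference changed with age, in edgeR's quasi-likelihood test of the difference itself, for Serpina1a (6.80 on the log2 scale), Serpina1e (3.30), Pnliprp2 (1.70) and Spink1 (-1.59).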

How the results depend on the processing

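The fold changes of the 3 genes kept their sign in 254 of 268 alternatives, and the 14 exceptions were all between the P36 regions. Ctrb1 at P36 rested on few counts: leaving out 1 library at a time gave -3.59 to 0.25 between the P36 regions, -14.82 to -11.13 with age in the jejunum and 6.69 to 10.53 for the change of the regional difference with age, the far ends coming without P36 jejunum mouse 1. The mean of Cela1 in the P36 ileum was 4.83 CPM when scaled by library totals. Of the other enzyme genes, those differential between the P36 regions numbered 2, and 1 to 3 without 1 library, 1 with sex as a covariate, only the 8 libraries compared, scaling by library totals, low counts kept, or the 3 ileum libraries that stood apart left out, and 4 with no fold minimum. Between the P6 regions no fold minimum gave 5 against 3, and those with an interaction numbered 2 without the 3 ileum libraries, a choice that leaves P6 ileum mice of 1 number stem. With the mouse as a replicate block, 3 and 1 other enzyme genes were differential between the P6 and P36 regions and 6 had an interaction; Serpina1c, Pnliprp1 and Rnase1, given above, were the calls it changed, and it also moved the adjusted p of Pnliprp2 between the P6 regions under 0.05. Over all genes, dropping the fold minimum raised the calls from 873, 484, 2209 and 2204 to 3484, 2163, 6927 and 7475, and the interaction had 1842 calls without the 3 ileum libraries and 1912 without P6 ileum mouse 4, against 1167. Scaling by library totals moved the median of all genes by -0.29 between the P6 regions, -0.14 between the P36 regions and -0.15 for the interaction, and made 240 of 1055 P6 calls higher in the jejunum, against 296 of 873. Depth limits Ctrb1 at P36 and most of the other enzyme genes, of which 8 of the 19 with a count did not pass the filter.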
